A study of Mus musculus with 49 samples.

Results

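Tumours that carried the label NR after a combination of anti-PD-1 and celecoxib were compared with tumours given celecoxib alone. The arms shared the drug and differed in the antibody, but the response label left out tumours of the combination arm only. Antibody and selection by response therefore cannot be told apart. The 11 libraries compared were chosen by their treatment and response labels from 49, and the 4 combination NR tumours were among 16 combination tumours, of which the other 12 carried the label R. All were tumours of CT26, a mouse colon carcinoma line, in Balb/c mice. The combination NR group (n = 4) received celecoxib daily at 30 mg/kg, as 200 µl per dose at 3 mg/mL, together with 2 doses of anti-PD-1, each of 200 µg. The celecoxib group (n = 7) received the same drug schedule without the antibody. Treatment began on day 7 after tumour cell injection and lasted 7 days. Beside them, the text uses 12 combination R tumours, which received the same as the combination NR group. It also uses 13 NR tumours given 2 doses of anti-PD-1, each of 200 µg, without celecoxib. A further 9 tumours were given vehicle, a mixture of DMSO, PEG400 and water at 200 µl per dose. For the anti-PD-1 tumours no such dose volume is recorded, so whether they received vehicle is not known. The labels do not define R and NR, and all celecoxib and vehicle tumours carried NR. Day 7 after treatment is the age in the tissue label, but RNA extraction is described for day 4, and this conflict remains. The labels do not say that each tumour came from a separate animal, so a p-value reflects only how far these samples spread, which may be technical.

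As background, celecoxib inhibits COX-2, the enzyme encoded by Ptgs2 that commits arachidonic acid to prostaglandin synthesis. Its product prostaglandin E2 restrains cytotoxic lymphocytes and dendritic cells in tumours and favours the production of myeloid-attracting chemokines and interleukins. PD-1, encoded by Pdcd1, is an inhibitory receptor of activated T cells, and an antibody against it can release T cells whose targets carry its ligand PD-L1, encoded by Cd274. A transcriptome of T cells released in this way usually carries more granzyme, perforin and interferon-gamma response transcripts. The comparison asks whether tumours that were labelled NR under both agents differed from tumours given the drug alone.

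RNA of whole tumours was read at the 3′ end of transcripts. Levels are given as CPM, counts scaled to the effective library size. Total counts lay between 6448635 and 9789479 in combination NR libraries and between 4251251 and 10437377 in celecoxib libraries, and they were not distinguishable (exact two-sided permutation test over 330 splits, p = 0.658). The labels name a colon carcinoma, and 7 of 12 colon epithelium markers had enough counts for the test. Krt20, an intestinal keratin, read 14.99 to 41.9 CPM in combination NR tumours and 18.6 to 100.5 CPM in celecoxib tumours. Epcam, an epithelial adhesion molecule, read 0 to 0.655 CPM in combination NR tumours and 0 to 9.21 CPM in celecoxib tumours, where the top value came from replicate 3, and Cldn7 was at 0 in all 11. Most epithelial markers of the labelled tissue were therefore low, and Krt20 was plainly detected. In RNA of whole tumours, fewer cells of a type and less RNA per cell cannot be told apart.

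Several libraries carried transcripts of tissue other than tumour. The skeletal muscle list (24 genes) had a mean of 2.80, -0.37, -0.15 and -0.08 log2 CPM in the 4 combination NR tumours, and of 7.23, 0.70, 6.60, -0.08, 0.08, 0.46 and -0.20 log2 CPM in the 7 celecoxib tumours. Celecoxib replicates 1 and 3 thus stood far above the other celecoxib tumours, and combination NR replicate 1 stood above the other combination NR tumours. The summed level of the 24 muscle genes ranged from 96.5 to 379.7 CPM in combination NR tumours and from 106 to 7737 CPM in celecoxib tumours. The skin epithelium list (7 tested of 19) had means of 1.0, 1.52, 1.05 and 1.03 log2 CPM in combination NR tumours and of 1.17, 1.05, 6.05, 1.11, 0.72, 1.06 and 1.06 log2 CPM in celecoxib tumours, with celecoxib replicate 3 alone high. Its summed level ranged from 51.05 to 79.0 CPM in combination NR tumours and from 32.6 to 2215 CPM in celecoxib tumours. Several gene and list values are also given without these 2 libraries.

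**Figure D1:**
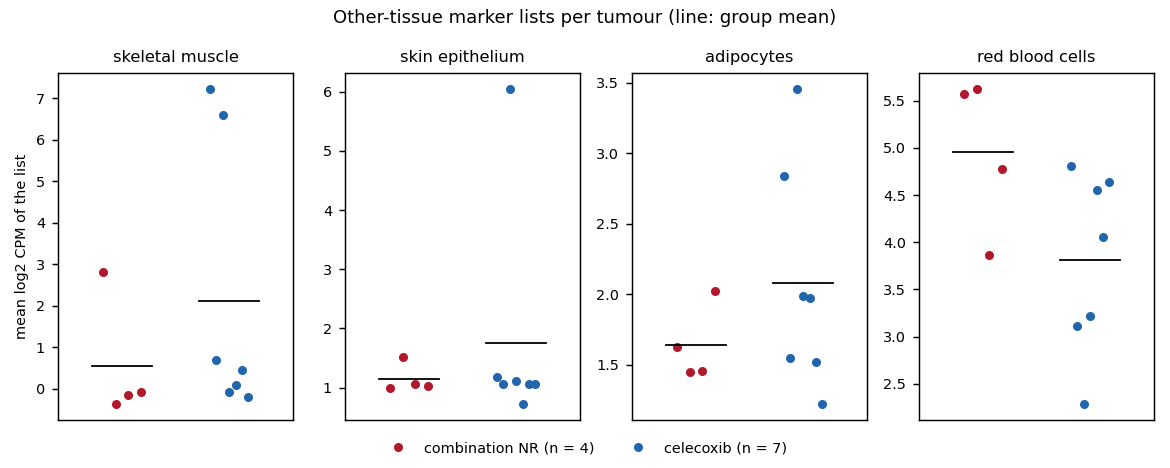
Mean log2 CPM of 4 marker lists in each combination NR (n = 4) and celecoxib (n = 7) tumour, with the group mean as a line. Celecoxib replicates 1 and 3 lie at 7.23 and 6.60 for skeletal muscle and celecoxib replicate 3 lies at 6.05 for skin epithelium, whereas the red blood cell means overlap between the groups.

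Over 14247 tested genes, no gene passed an adjusted p of 0.05 between combination NR and celecoxib tumours (0.0%; edgeR's quasi-likelihood test with Benjamini-Hochberg adjustment). At an unadjusted p under 0.05 there were 689 genes (4.84%), of which 260 were higher (1.82%) and 429 lower (3.01%) in combination NR tumours. The median log2 fold change over all tested genes was -0.03, and the median standard error of a gene was 0.27 on the log2 scale. DESeq2 called 10 genes, limma-voom 0 and limma-voom with sample quality weights 1. The DESeq2 calls were Rnase2a and Bbs4 as higher and Rnu11, Art1, Susd2, Krt33b, Ckmt2, Krtap19-9b, Gm10229 and Krtap11-1 as lower. Some rest on few libraries. By edgeR the log2 fold change of Ckmt2, a muscle list gene, was 0.0 without celecoxib replicates 1 and 3. That of Rnase2a was 1.72 without combination NR replicate 3, in place of 5.40. The CPM ranges of the groups did not overlap in 94 genes (0.66%), 50 higher (0.351%) and 44 lower (0.309%). Among 491 tested genes of 31 gene lists (of 566 listed), 0 passed the limit. The genes described next are those of smallest p in each direction and fixed panel members, and under edgeR none of them is a called difference.

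Among the genes of smallest p with a higher level in combination NR tumours, Rnase2a came first. Rnase2a (chr14:51255262-51256112, GRCm38) encodes a secreted ribonuclease of the eosinophil-associated family. It read 0.522, 4.26, 76.3 and 0.206 CPM in the 4 combination NR tumours, against 0 to 1.36 CPM (median 0.449) in the celecoxib tumours. The value of combination NR replicate 3 was far above all others, replicate 2 was above every celecoxib tumour, and replicates 1 and 4 lay within the celecoxib range. The log2 fold change was 5.40 (SE 1.04) with an adjusted p of 0.0615 by edgeR. Without combination NR replicate 3 it was 1.72 with an adjusted p of 1.0, and over 19 alternatives the adjusted p ranged from 0.000387 to 1.0, with 4 past the limit. Other eosinophil genes, picked after the values of Rnase2a were seen, did not accompany it at that size. Epx, Prg3, Il5ra, Ear1 and Ear6 were at 0 in all 11 tumours, which allows up to 0.492 CPM in a combination NR library and up to 0.680 CPM in a celecoxib library (3 counts, counting error only). Prg2 read 0, 0, 0.297 and 0 CPM in combination NR tumours. Ear2, a paralog of Rnase2a, read 0.783, 1.80, 8.01 and 0.206 CPM in combination NR tumours, against 0.829 to 2.94 CPM (median 1.68) in celecoxib tumours, so its top value was also in combination NR replicate 3. Reads of this family can be split between near-identical copies, so single members are uncertain.

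Bbs4 (chr9:59321990-59353508), a subunit of the BBSome that carries membrane proteins to cilia, read 12.1, 9.50, 10.1 and 12.1 CPM in combination NR tumours, against 4.76 to 8.06 CPM (median 6.42) in celecoxib tumours. All 4 combination NR values were above all 7 celecoxib values, which held for 50 of 14247 tested genes (0.351%). The genes here were picked by p in these same data, so their separation is no further evidence. Its log2 fold change was 0.77 (SE 0.18) with an adjusted p of 0.445 by edgeR, and over 20 alternatives the adjusted p ranged from 0.0315 to 1.0, past the limit with DESeq2 and with sample quality weights. Elk1 (chrX), a transcription factor that responds to MAP kinase signalling, read 28.98, 30.3, 27.3 and 29.2 CPM in combination NR tumours and 18.5 to 24.04 CPM (median 20.8) in celecoxib tumours, again without overlap. Slc20a1, a sodium-dependent phosphate transporter, read 284, 217, 204 and 193 CPM in combination NR tumours and 109 to 174 CPM (median 145) in celecoxib tumours, and Pea15a, an adaptor that binds ERK, read 200.3, 243, 239 and 213 CPM in combination NR tumours and 125 to 171 CPM (median 161) in celecoxib tumours. Neither overlapped between the groups. Fbxl2 (F-box protein) and Exoc3l4 (exocyst-like protein) averaged 15.9 ± 2.86 and 25.9 ± 2.48 CPM in combination NR tumours, and 10.4 ± 1.63 and 18.6 ± 3.15 CPM in celecoxib tumours (SD). Arl4c, a small GTPase of the ARF family, averaged 118 ± 14.9 CPM in combination NR tumours and 72.4 ± 19.1 CPM in celecoxib tumours, and Hdac9, a class II histone deacetylase, 11.4 ± 4.90 CPM in combination NR tumours and 5.10 ± 1.28 CPM in celecoxib tumours. Their log2 fold changes lay between 0.46 for Elk1 and 1.15 for Hdac9, and the adjusted p was at least 0.987 for each of them.

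**Figure D2:**
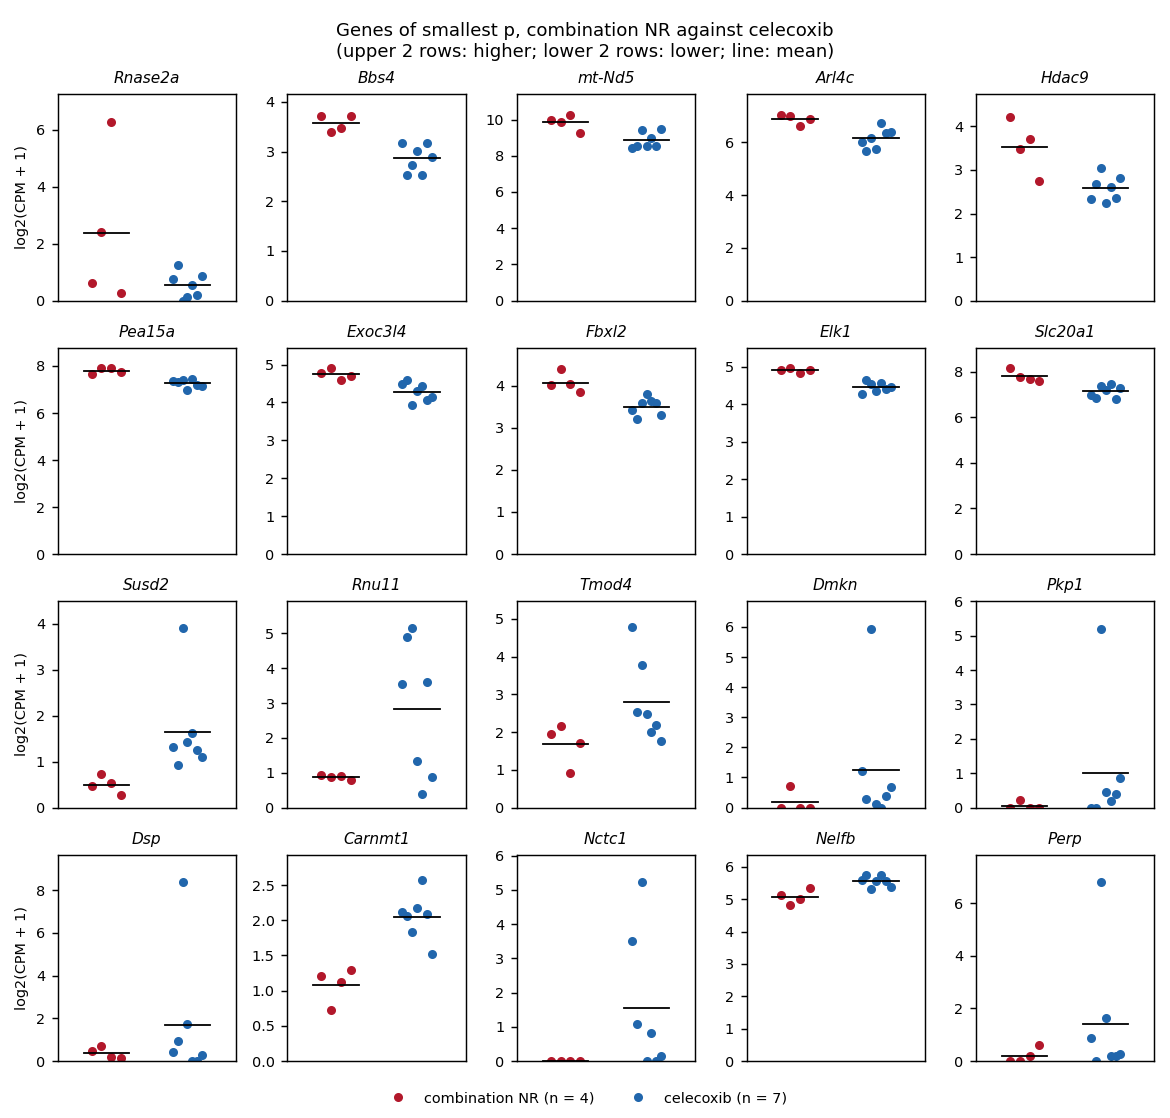
Level of the 20 genes of smallest p as log2(CPM + 1) in each combination NR (n = 4) and celecoxib (n = 7) tumour, with the mean as a line. Bbs4, Pea15a, Elk1 and Slc20a1 on the higher side, and Susd2 and Carnmt1 on the lower side, do not overlap between the groups. Rnase2a rests on 1 combination NR tumour at 76.3 CPM. Dmkn, Pkp1, Dsp and Perp stand highest in celecoxib replicate 3 and have smaller fold changes without it.

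Of the genes of smallest p with a lower level in combination NR tumours, several mark skin or muscle and followed the 2 celecoxib libraries named above. Dsp, the desmosome protein desmoplakin, read 0.392, 0.655, 0.148 and 0.103 CPM in combination NR tumours, against 0 to 328 CPM (median 0.336) in celecoxib tumours, and 328 CPM was the value of celecoxib replicate 3. Without that replicate its log2 fold change was -1.07 in place of -7.21. Perp, another desmosome gene, had a log2 fold change of -6.31 with all libraries and of -1.66 without it, and Dmkn, a secreted protein of the epidermis, -5.84 and -1.48. Pkp1, a plakophilin of desmosomes, read 0, 0.164, 0 and 0 CPM in combination NR tumours, against 0 to 35.7 CPM (median 0.308) in celecoxib tumours. The log2 fold change of Pkp1 was -6.76 with all libraries and -2.7 without celecoxib replicate 3. Nctc1, a noncoding RNA beside the Igf2 and H19 genes, was at 0 in all 4 combination NR tumours, which allows at most 0.309 to 0.492 CPM (3 counts, counting error only). It read 0 to 36.1 CPM (median 0.749) in celecoxib tumours with the top value in replicate 3. Its log2 fold change was -8.79 with all libraries, -7.03 without that replicate and -4.5 without celecoxib replicates 1 and 3. Tmod4, a tropomodulin of skeletal muscle, read 2.87, 3.44, 0.89 and 2.27 CPM in combination NR tumours and 2.38 to 26.4 CPM (median 4.59) in celecoxib tumours, and its log2 fold change was -1.78 with all libraries and -0.62 without celecoxib replicates 1 and 3.

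Other genes of the lower side did not follow those libraries alone. Susd2, a sushi-domain membrane protein, read 0.392, 0.655, 0.445 and 0.206 CPM in combination NR tumours, against 0.907 to 13.9 CPM (median 1.51) in celecoxib tumours, and no value overlapped. Its log2 fold change was -2.94 (SE 0.71) with an adjusted p of 0.626 by edgeR, and it was -1.79 without celecoxib replicate 3; over 20 alternatives the adjusted p ranged from 0.0315 (DESeq2) to 1.0. Carnmt1, which methylates carnosine, read 1.31, 0.655, 1.19 and 1.44 CPM in combination NR tumours and 1.86 to 4.94 CPM (median 3.24) in celecoxib tumours, without overlap and with a log2 fold change of -1.46 (SE 0.42). Nelfb, a subunit of the negative elongation factor of RNA polymerase II, averaged 32.9 ± 5.28 CPM in combination NR tumours and 46.2 ± 5.22 CPM in celecoxib tumours (SD). Rnu11, the U11 RNA of the minor spliceosome, read 0.914, 0.819, 0.89 and 0.721 CPM in combination NR tumours, against 0.3 to 34.4 CPM (median 10.8) in celecoxib tumours. Celecoxib replicates 1, 2, 3 and 6 were at 10.8 CPM or more and the other 3 at 1.53 CPM or less, so the celecoxib group was split.

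No transcript of T cells or of their effector functions passed the limit, and most had negative fold changes in combination NR tumours against celecoxib tumours. Of 19 T cell receptor and co-receptor genes, 4 had a positive log2 fold change and none passed the limit or an unadjusted p of 0.05, with a median of -0.16 beside -0.03 over all tested genes. Cd8a, the CD8 co-receptor, read 1.31, 10.3, 0 and 16.9 CPM in combination NR tumours, against 1.05 to 31.5 CPM (median 3.40) in celecoxib tumours. Combination NR replicates 2 and 4 lay above the celecoxib median, replicate 1 near the lowest celecoxib tumour and replicate 3 below it. Cd3e, a chain of the receptor complex, averaged 6.74 ± 2.91 CPM in combination NR tumours and 7.43 ± 6.12 CPM in celecoxib tumours (SD). The log2 fold changes were -0.44 (SE 1.15) for Cd8a and -0.16 (SE 0.75) for Cd3e. Foxp3, the regulatory T cell factor, averaged 2.90 ± 0.863 CPM in combination NR tumours and 1.78 ± 1.13 CPM in celecoxib tumours. Pdcd1, the target of the antibody, read 1.17, 3.28, 0.148 and 11.1 CPM in combination NR tumours, against 0.599 to 22.6 CPM (median 4.73) in celecoxib tumours, and Cd274 read 15.1, 66.04, 11.1 and 49.1 CPM in combination NR tumours and 7.39 to 53.5 CPM (median 18.1) in celecoxib tumours. Both overlapped widely, with log2 fold changes of -0.72 (SE 1.12) for Pdcd1 and 0.43 (SE 0.58) for Cd274.

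The cytotoxic effector list, with 18 tested genes, had a median log2 fold change of -0.25, and 5 members were positive. Gzmb, the serine protease granzyme B, read 10.7, 13.3, 7.27 and 13.4 CPM in combination NR tumours, against 8.32 to 43.9 CPM (median 13.6) in celecoxib tumours. The highest combination NR value was below the celecoxib median, yet the ranges overlapped and the log2 fold change was -0.71 (SE 0.78). Prf1, the pore protein perforin, averaged 1.80 ± 1.75 CPM in combination NR tumours and 2.76 ± 2.68 CPM in celecoxib tumours, and Ifng, which encodes interferon-gamma, 4.69 ± 3.73 CPM in combination NR tumours and 5.38 ± 7.22 CPM in celecoxib tumours. Ctsw, a cysteine protease of cytotoxic lymphocytes, stood on the other side at 16.2 ± 9.93 CPM in combination NR tumours and 9.72 ± 5.39 CPM in celecoxib tumours. Inhibitory receptors had a median of -0.15 (2 of the 11 positive), and NK cell genes of -0.29 (1 of the 9 positive). The sign of several of these medians turned on single tumours. The T cell median was -0.62 without combination NR replicate 4 and 0.17 without celecoxib replicate 4, and the cytotoxic median was -0.60 without the first of these and 0.22 without the other.

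Among 35 interferon-gamma response genes, 7 were positive and the median was -0.24, again with 0 past the limit and 0 at an unadjusted p under 0.05. Cxcl9 and Cxcl10 encode interferon-induced chemokines that attract activated T cells. Cxcl9 read 170.1, 519, 59.4 and 449.9 CPM in combination NR tumours, against 99.5 to 1004 CPM (median 409) in celecoxib tumours. Cxcl10 averaged 88.4 ± 40.5 CPM in combination NR tumours and 151 ± 89.6 CPM in celecoxib tumours, where replicate 4 stood apart at 349 CPM. In both genes the groups overlapped. The list median was -0.58 without combination NR replicate 2 and 0.03 without celecoxib replicate 4. The per-tumour list mean was 6.16 ± 0.88 log2 CPM in combination NR tumours and 6.40 ± 0.81 log2 CPM in celecoxib tumours, and both groups held tumours at low and at high levels. MHC class II genes had a median of -0.02; H2-Aa, a class II chain, averaged 744 ± 406 CPM in combination NR tumours and 511 ± 239 CPM in celecoxib tumours. The class II median was -0.31 without combination NR replicate 4 and 0.17 without celecoxib replicate 4. Type I interferon genes had a median of -0.13, and between -0.33 and -0.01 when 1 library was left out.

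**Figure D3:**
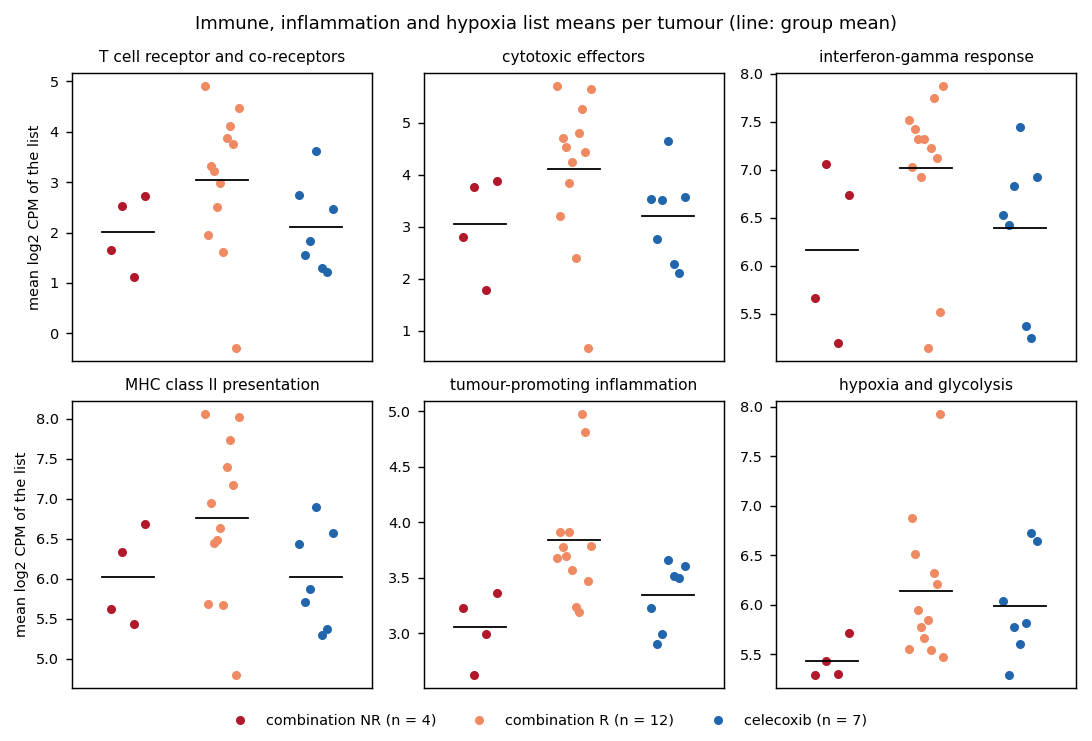
Mean log2 CPM of 6 gene lists in each combination NR (n = 4), combination R (n = 12) and celecoxib (n = 7) tumour, with the group mean as a line. The T cell means average 2.01 in combination NR, 3.04 in combination R and 2.11 in celecoxib tumours, and the groups overlap in each of the 6 panels.

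No prostaglandin pathway gene passed the limit between the arms, both of which had received the COX-2 inhibitor. Of 23 tested members (of 27), 14 were positive, with a median of 0.05 (0.01 without celecoxib replicates 1 and 3) and none at an unadjusted p under 0.05. Ptgs2, which encodes COX-2 itself, read 6.92, 1.64, 5.05 and 10.8 CPM in combination NR tumours, against 5.44 to 30.04 CPM (median 11.5) in celecoxib tumours. Combination NR replicate 2 was below every celecoxib tumour and the other 3 lay within the celecoxib range, with a log2 fold change of -1.13 (SE 0.75). Pla2g4a, the phospholipase that frees arachidonic acid, averaged 46.2 ± 10.1 CPM in combination NR tumours and 37.8 ± 9.57 CPM in celecoxib tumours. Ptges, the terminal synthase of prostaglandin E2, averaged 82.5 ± 8.90 CPM in combination NR tumours and 86.7 ± 24.9 CPM in celecoxib tumours. Ptger2, the EP2 receptor of prostaglandin E2, averaged 0.593 ± 0.518 CPM in combination NR tumours and 1.28 ± 0.968 CPM in celecoxib tumours. Hpgd, the enzyme that breaks prostaglandins down, had too few counts to be tested.

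Genes of the tumour-promoting inflammation and neutrophil lists had mostly negative fold changes in combination NR tumours, without a call. The tumour-promoting inflammation list had 4 of the 20 tested members positive and a median of -0.31, or -0.12 without combination NR replicate 2. Nos2, the inducible nitric oxide synthase, read 0.653, 0.328, 1.04 and 0.515 CPM in combination NR tumours, against 0.672 to 7.47 CPM (median 2.27) in celecoxib tumours. Of the 7 celecoxib values 6 were above all combination NR values and the lowest, 0.672 CPM, was within them; the log2 fold change was -2.21 (SE 1.05) with an unadjusted p of 0.0398 and an adjusted p of 0.997 by edgeR. Cxcl1 and Cxcl2, chemokines that attract neutrophils, averaged 6.22 ± 1.60 and 1.23 ± 1.06 CPM in combination NR tumours and 8.01 ± 2.45 and 2.51 ± 1.80 CPM in celecoxib tumours. Il1b, an inflammatory cytokine, averaged 15.4 ± 9.83 CPM in combination NR tumours and 15.5 ± 7.30 CPM in celecoxib tumours, and Arg1, the arginase of myeloid cells, 15.7 ± 9.20 CPM in combination NR tumours and 15.8 ± 4.80 CPM in celecoxib tumours, so these means nearly coincided. Il6 had too few counts to be tested. Neutrophil genes had a median of -0.53 (-0.23 without celecoxib replicate 4), with 9 of 10 tested members negative, 6 of the 16 listed not tested, and Ly6g, Camp, Ngp and Cxcr1 at 0 in all 11 tumours. S100a8, a neutrophil calcium-binding protein, read 0.783, 0, 0.742 and 2.47 CPM in combination NR tumours, against 0.599 to 2.80 CPM (median 2.18) in celecoxib tumours. Mmp9, a gelatinase, was the positive member at 27.2 ± 9.79 CPM in combination NR tumours and 16.6 ± 3.99 CPM in celecoxib tumours (unadjusted p 0.0434). Macrophage and monocyte genes had a median of 0.17, which was -0.12 without combination NR replicate 4. Adgre1, which encodes the F4/80 antigen, averaged 112 ± 22.3 CPM in combination NR tumours and 139 ± 83.5 CPM in celecoxib tumours, and Cx3cr1, a chemokine receptor of monocytes, 91.4 ± 43.6 CPM in combination NR tumours and 45.02 ± 18.3 CPM in celecoxib tumours.

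Hypoxia and glycolysis genes had mostly negative fold changes in combination NR tumours, without a call. Of the 30 listed, 28 had a negative log2 fold change and 2 a positive one (6.67%, beside 45.7% positive over all tested genes), and the median was -0.60. None passed the limit, and Ldha and Pfkp reached an unadjusted p under 0.05. Ldha, the lactate dehydrogenase subunit of glycolytic cells, read 482, 409.7, 415 and 664 CPM in combination NR tumours, against 478 to 1337 CPM (median 824) in celecoxib tumours. Its log2 fold change was -0.82 (SE 0.39) with an unadjusted p of 0.0414 and an adjusted p of 0.997 by edgeR. Pfkp, a phosphofructokinase of glycolysis, averaged 56.6 ± 10.1 CPM in combination NR tumours and 82.7 ± 15.9 CPM in celecoxib tumours, with a log2 fold change of -0.55 (SE 0.26). The list mean was 5.28, 5.43, 5.30 and 5.71 log2 CPM in the 4 combination NR tumours and 6.03, 5.28, 5.77, 5.60, 5.82, 6.73 and 6.64 log2 CPM in the 7 celecoxib tumours, so the groups overlapped, with celecoxib replicates 6 and 7 highest. Leaving out any 1 of the 11 libraries gave a median between -0.74 and -0.48, and leaving out celecoxib replicates 1 and 3 gave -0.62.

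Metallothionein and heat shock genes, which answer metal and protein stress, were all negative (12 of 12) with a median of -0.66 and none past the limit. Hspa1b, an inducible HSP70 with a near-identical copy, read 6.005, 5.08, 6.08 and 9.48 CPM in combination NR tumours, against 7.81 to 35.4 CPM (median 16.4) in celecoxib tumours. Its ranges overlapped only through celecoxib replicate 3, and the log2 fold change was -1.54 (SE 0.57) with an unadjusted p of 0.00941. Hspb1, a small heat shock protein that muscle also expresses, read 2.48, 3.77, 1.78 and 1.86 CPM in combination NR tumours, against 0.414 to 37.1 CPM (median 1.36) in celecoxib tumours with 37.1 and 15.99 CPM in replicates 1 and 3. Its log2 fold change was -1.77 with all libraries and 1.09 without those replicates. Without them the list median was -0.47 and 2 of 12 genes were positive.

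Genes of the list of the glucocorticoid receptor and its targets were also all negative (12 of 12 tested, 15 listed, median -0.34). Fkbp5, an immunophilin that binds the receptor complex, read 73.2, 84.2, 87.4 and 78.8 CPM in combination NR tumours, against 83.8 to 240.1 CPM (median 136) in celecoxib tumours. Only celecoxib replicate 7 lay within the combination NR range, and the log2 fold change was -0.77 (SE 0.24) with an unadjusted p of 0.0023 and an adjusted p of 0.987 by edgeR. Over 20 alternatives its log2 fold change stayed between -0.86 and -0.58 and its adjusted p between 0.232 and 1.0. Zbtb16, a transcription factor that glucocorticoids induce, read 0, 0.164, 0.742 and 0.103 CPM in combination NR tumours and 0.45 to 20.9 CPM (median 1.14) in celecoxib tumours, with the top value in celecoxib replicate 3. Its log2 fold change was -4.10 with all libraries and -2.29 without celecoxib replicates 1 and 3, and the list median without them was -0.21 with 2 of 12 genes positive. On the glucocorticoid list celecoxib replicates 1, 2 and 3 were at 5.01, 5.01 and 5.06 log2 CPM, and the other celecoxib tumours between 4.26 and 4.47. Of the highest tumours, replicates 1 and 3 also had high muscle means, and replicate 2 had a muscle mean of 0.70. On the metallothionein and heat shock list celecoxib replicate 1 was highest at 7.44, and replicate 3 was at 6.39. The celecoxib group began at 6.21 on that list. The part of muscle and skin transcripts in these 2 lists was not tested beyond leaving celecoxib replicates 1 and 3 out.

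Mitochondrially encoded transcripts had positive fold changes, with 7 of the 7 tested members positive (13 listed), a median of 0.57 and 4 at an unadjusted p under 0.05 but 0 past the limit. They encode subunits of the respiratory chain. Of the 6 members not tested, 5 were at 0 in all 11 tumours (mt-Nd4l, mt-Co2, mt-Co3, mt-Atp6 and mt-Atp8). The counts thus cover only part of the mitochondrially encoded transcripts. The subunit gene mt-Nd5 of complex I read 1023, 933, 1235 and 609.6 CPM in combination NR tumours, against 349.6 to 705 CPM (median 372) in celecoxib tumours. Combination NR replicate 4 lay within the celecoxib range and the other 3 above it, with a log2 fold change of 0.99 (SE 0.29) and an unadjusted p of 0.00143. Also in complex I, mt-Nd4 averaged 12331 ± 3978 CPM in combination NR tumours and 6454 ± 2346 CPM in celecoxib tumours, and mt-Nd2 averaged 6075 ± 1329 CPM in combination NR tumours and 2875 ± 1361 CPM in celecoxib tumours. The cytochrome oxidase subunit gene mt-Co1 had a log2 fold change of 0.57 (SE 0.25). The median lay between 0.45 and 0.77 when any 1 of the 11 libraries was left out.

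Red blood cell genes were positive in 5 of the 5 tested, with a median of 1.20 and no member at an unadjusted p under 0.05. Hba-a1 and Hba-a2, near-identical alpha-globin genes, averaged 89.3 ± 53.5 and 69.3 ± 44.2 CPM in combination NR tumours and 36.7 ± 25.3 and 28.1 ± 17.6 CPM in celecoxib tumours. Proliferation genes had a median of 0.05 and Mki67, a marker of cycling cells, averaged 185 ± 36.4 CPM in combination NR tumours and 164 ± 39.2 CPM in celecoxib tumours. Medians of fibroblast, endothelial, pericyte, dendritic cell, regulatory T cell, B and plasma cell, cholesterol synthesis and unfolded protein genes lay between -0.13 and 0.05, and that of mast cell genes was 0.33. Without celecoxib replicates 1 and 3 the medians of endothelial and fibroblast genes were -0.15 and -0.07, in place of 0.04 and 0.05, and that of pericyte genes was -0.22, in place of -0.09. Insig1, which retains sterol sensors in the endoplasmic reticulum, read 22.1, 55.7, 33.2 and 12.99 CPM in combination NR tumours, against 9.86 to 31.3 CPM (median 13.3) in celecoxib tumours, whereas Lss, a cyclase of sterol synthesis, averaged 10.2 ± 2.26 CPM in combination NR tumours and 15.1 ± 5.32 CPM in celecoxib tumours. All 24 skeletal muscle genes were negative, 21 of them at an unadjusted p under 0.05, with a median of -4.49. Without celecoxib replicates 1 and 3 the median was 1.61 and 22 of 24 were positive. That fit kept combination NR replicate 1, which had a muscle mean of 2.80 log2 CPM. The other combination NR tumours were at -0.37 to -0.08 and the remaining celecoxib tumours at -0.20 to 0.70. Without combination NR replicate 1 alone the median was -7.52. The skin epithelium median was -1.87 with all libraries and 0.21 without celecoxib replicates 1 and 3, and the adipocyte median -0.73 and -0.13.

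**Figure D4:**
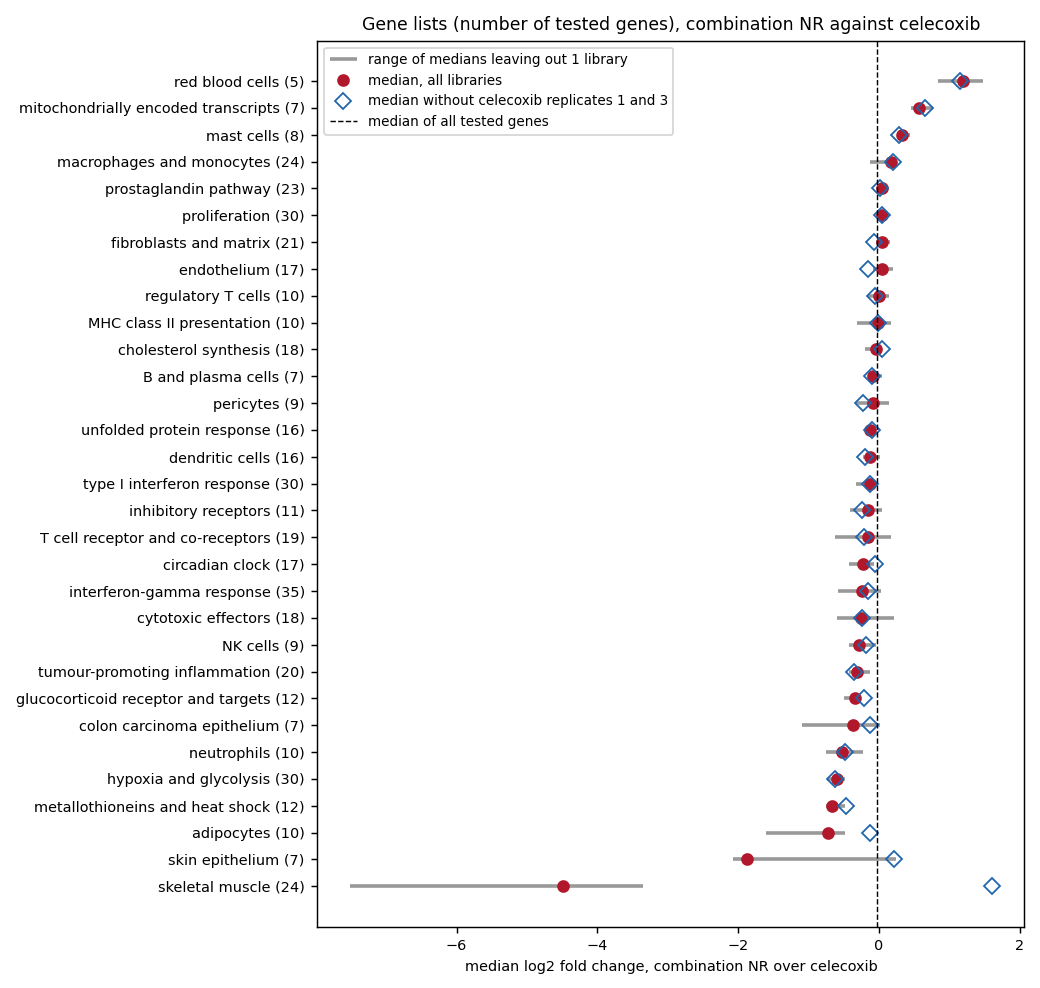
Median log2 fold change of combination NR over celecoxib tumours for 31 gene lists (tested genes in brackets), with the range of medians when 1 library is left out and the median without celecoxib replicates 1 and 3. The skeletal muscle median lies at -4.49 with all libraries and at 1.61 without those replicates, whereas that of hypoxia and glycolysis lies at -0.60 and -0.62. The value of 1.61 keeps combination NR replicate 1, which has a muscle mean of 2.80 log2 CPM.

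The same antibody was also given without celecoxib. The difference between combination NR and celecoxib tumours was therefore set against that between anti-PD-1 NR and vehicle tumours, 2 differences that share no library. No dose volume of vehicle is recorded for anti-PD-1 tumours, so celecoxib and its dosing cannot be told apart here. The NR label kept 4 of 16 combination tumours, and 13 anti-PD-1 tumours beside 4 labelled R. It left out no celecoxib or vehicle tumour, so antibody and selection by response cannot be told apart either. In this contrast 1 of 14247 genes passed the limit (0.00702%), and 454 (3.19%) had an unadjusted p under 0.05. The called gene was Dbp, and Tef, Nr1d2 and Per3 followed among the genes with a positive difference. DESeq2 called 12 genes, namely Dbp, Nr1d2, Tef, Art1, Ckmt2, Mylpf, Gm10229, Krt33b, Krtap11-1, Krtap19-9b, Krtap3-3 and Tchh. Ckmt2 and Mylpf are of the skeletal muscle list, whose median difference was -6.26 with 0 of 24 positive. Some other lists moved the same way in both comparisons. Between anti-PD-1 NR and vehicle tumours the hypoxia and glycolysis median was -0.68 (0 of 30 positive), beside -0.6 between combination NR and celecoxib tumours. Mitochondrially encoded transcripts were at 0.54 (7 of 7 positive) and 0.57 in the same order, and red blood cell genes at 1.1 (5 of 5 positive) and 1.2. The median differences of these lists were 0.02, 0.36 and -0.06. Dbp, Tef, Nr1d2 and Per3 belong to the circadian clock. In it CLOCK and BMAL1 drive a set of genes through E-boxes, and the products of those genes feed back. Dbp and Tef encode PAR-bZIP factors that bind D-boxes, Nr1d2 encodes the nuclear receptor REV-ERB beta, and Per3 a period protein.

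Dbp read 31.6, 96.03, 155 and 35.1 CPM in combination NR tumours, against 46.3 to 110.2 CPM (median 71.3) in celecoxib tumours. In anti-PD-1 NR tumours it ranged from 4.57 to 25.8 CPM (median 12.5), against 61.3 to 209 CPM (median 86.2) in vehicle tumours. The anti-PD-1 NR tumours all lay below the other 3 groups, and combination NR and celecoxib tumours overlapped. The log2 fold change was -0.02 (SE 0.44) between combination NR and celecoxib tumours and -2.84 (SE 0.31) between anti-PD-1 NR and vehicle tumours. The difference of these was 2.82 (SE 0.53) with an adjusted p of 0.0391 by edgeR. When 1 of the 33 libraries was left out it ranged from 2.28 to 3.11, with 13 of 33 fits past the limit and adjusted p from 0.0107 to 0.802. Over 8 other alternatives it ranged from 1.98 to 2.96, with 4 past the limit and adjusted p from 0.000188 to 0.506.

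Tef read 78.98, 238, 161 and 112 CPM in combination NR tumours, against 95.8 to 148 CPM (median 137) in celecoxib tumours, and in anti-PD-1 NR tumours 24.1 to 85.8 CPM (median 40.4), against 88.6 to 229 CPM (median 131) in vehicle tumours. Nr1d2 read 106, 129, 153 and 121 CPM in combination NR tumours and 93.002 to 142 CPM (median 115) in celecoxib tumours, and 48.03 to 97.9 CPM (median 59.2) in anti-PD-1 NR tumours against 82.01 to 154 CPM (median 124) in vehicle tumours. Per3 read 39.6, 71.9, 106 and 55.9 CPM in combination NR tumours and 67.1 to 94.1 CPM (median 79.96) in celecoxib tumours, and 18.9 to 39.4 CPM (median 31.2) in anti-PD-1 NR tumours against 60.4 to 147 CPM (median 92.4) in vehicle tumours. In these 3 genes too the anti-PD-1 NR tumours were the low group, below all others for Per3 and with some overlap for Tef and Nr1d2, and the other 3 groups overlapped each other. Against vehicle tumours all 4 genes were lower in anti-PD-1 NR tumours, among 10 called of 14247 (0.0702%), with adjusted p of 1.11e-07 for Dbp, 1.85e-06 for Tef, 7.71e-05 for Nr1d2 and 1.72e-07 for Per3 by edgeR. The differences were 1.84 (SE 0.37) for Tef, 1.04 (SE 0.24) for Nr1d2 and 1.29 (SE 0.31) for Per3, with adjusted p of 0.0659, 0.257 and 0.537 by edgeR. Arntl, which encodes BMAL1, read 12.5, 2.95, 5.05 and 6.70 CPM in combination NR tumours, against 3.45 to 9.55 CPM (median 6.57) in celecoxib tumours, and 12.5 to 37.1 CPM (median 18.1) in anti-PD-1 NR tumours against 5.61 to 13.8 CPM (median 6.46) in vehicle tumours. Its difference ran the other way at -1.26 (SE 0.40), with an adjusted p of 0.989. Cry1, a cryptochrome repressor of the clock, was the clock gene of smallest p between the arms themselves. It read 8.09, 13.6, 18.1 and 7.73 CPM in combination NR tumours and 13.2 to 32.2 CPM (median 24.2) in celecoxib tumours, with a log2 fold change of -0.92 (SE 0.31) and an adjusted p of 0.99. Over 17 tested clock genes the median was -0.22 between combination NR and celecoxib tumours and -0.93 between anti-PD-1 NR and vehicle tumours. The first of these was -0.05 without celecoxib replicates 1 and 3, and between -0.42 and -0.07 when 1 library was left out. The labels give no clock time of collection.

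**Figure D5:**
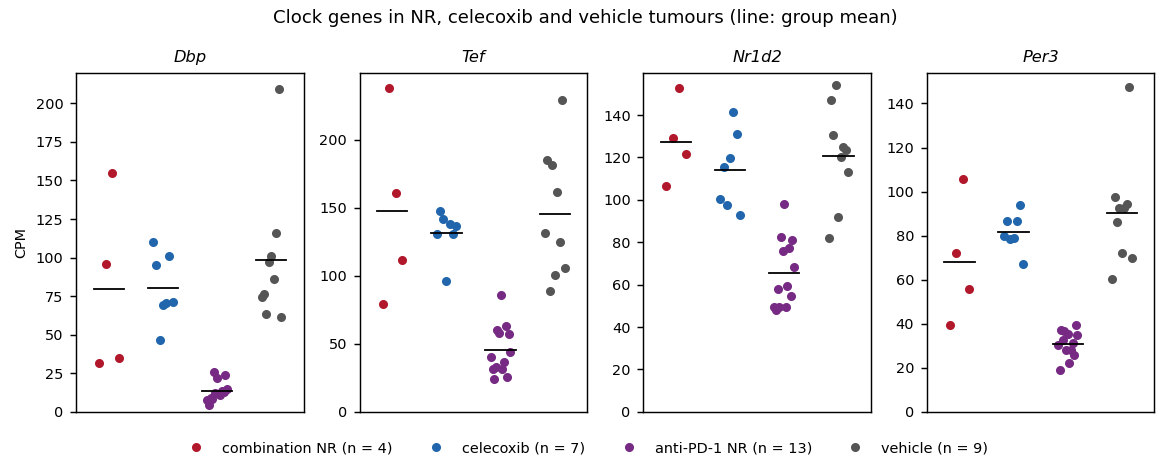
Level of Dbp, Tef, Nr1d2 and Per3 in CPM in each combination NR (n = 4), celecoxib (n = 7), anti-PD-1 NR (n = 13) and vehicle (n = 9) tumour, with the group mean as a line. Dbp does not exceed 25.8 CPM in any anti-PD-1 NR tumour, whereas the lowest value in the other 3 groups is 31.6 CPM.

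Because these 4 genes were lower together in anti-PD-1 NR than in vehicle tumours, the 250 bases before their RefSeq starts are shown, with clock motifs in capitals. The motifs searched on both strands were the E-box CACGTG, which is its own reverse complement, and the D-box TTATGTAA, whose reverse complement is TTACATAA; they do not overlap. Dbp lies at chr7:45704997-45705246 on the plus strand, the Tef starts at chr15:81802423-81802672 and chr15:81811164-81811413 on the plus strand, Nr1d2 at chr14:18239107-18239356 and Per3 at chr4:151044666-151044915 on the minus strand (RefSeq, GRCm38.p6). Sequences run 5′ to 3′ towards the start.
Dbp: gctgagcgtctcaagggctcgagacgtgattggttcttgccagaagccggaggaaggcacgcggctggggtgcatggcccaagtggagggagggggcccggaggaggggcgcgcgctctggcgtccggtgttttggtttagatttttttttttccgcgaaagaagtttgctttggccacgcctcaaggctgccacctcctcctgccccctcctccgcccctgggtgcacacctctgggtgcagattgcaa
Tef, first start: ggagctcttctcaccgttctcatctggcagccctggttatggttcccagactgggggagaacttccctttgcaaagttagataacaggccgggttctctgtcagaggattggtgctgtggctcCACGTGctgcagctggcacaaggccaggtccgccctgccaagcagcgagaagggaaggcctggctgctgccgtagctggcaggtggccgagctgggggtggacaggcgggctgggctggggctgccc
Tef, other start: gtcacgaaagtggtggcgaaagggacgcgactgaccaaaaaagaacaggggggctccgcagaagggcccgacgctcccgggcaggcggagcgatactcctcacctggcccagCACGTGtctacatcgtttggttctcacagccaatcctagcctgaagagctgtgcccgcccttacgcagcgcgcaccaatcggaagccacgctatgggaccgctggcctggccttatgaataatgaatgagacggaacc
Nr1d2: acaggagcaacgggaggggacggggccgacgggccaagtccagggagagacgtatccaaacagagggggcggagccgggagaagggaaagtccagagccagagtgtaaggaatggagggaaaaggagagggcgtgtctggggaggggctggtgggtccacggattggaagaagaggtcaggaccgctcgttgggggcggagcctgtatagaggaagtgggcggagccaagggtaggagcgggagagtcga
Per3: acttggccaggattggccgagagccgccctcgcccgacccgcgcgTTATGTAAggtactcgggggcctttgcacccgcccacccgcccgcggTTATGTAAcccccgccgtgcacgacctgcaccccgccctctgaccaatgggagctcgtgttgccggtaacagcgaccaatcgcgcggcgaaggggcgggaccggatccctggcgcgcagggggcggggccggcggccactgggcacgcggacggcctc
Each Tef window held 1 E-box, whose first base lay 127 and 138 bases before the start, and the Per3 window held 2 D-boxes at 205 and 158 bases. An E-box of these letters was present in 1978 of 32851 promoters of this length (6.02%) and a D-box in 269 (0.819%). A match is a description of these letters, and the windows of Dbp and Nr1d2 held neither.

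The combination R tumours received the same drug and antibody, and because they and the combination NR tumours would share the celecoxib group as a control, they were compared directly. No gene passed the limit between combination NR and combination R tumours by edgeR (0.0%), 1298 had an unadjusted p under 0.05 (9.11%), DESeq2 called 17, limma-voom 0 and limma-voom with sample quality weights 1, and the smallest adjusted p was 0.0705 (1700031A10Rik). Nos2 read 0.328 to 1.04 CPM in combination NR tumours, against 0.538 to 90.1 CPM (median 4.49) in combination R tumours, with a log2 fold change of -4.38 (SE 1.07) and an adjusted p of 0.329. Cxcl1 averaged 6.22 ± 1.60 CPM in combination NR tumours and 24.04 ± 21.2 CPM in combination R tumours, with -1.95 (SE 0.49) and 0.329. Rapgef3, an exchange factor that cyclic AMP activates, was the named gene of smallest p on the higher side, at 40.6 ± 10.6 CPM in combination NR tumours and 22.2 ± 5.65 CPM in combination R tumours (0.87 (SE 0.18), adjusted p 0.104). Insig1 averaged 31.001 ± 18.4 CPM in combination NR tumours and 12.2 ± 6.67 CPM in combination R tumours (1.35 (SE 0.34)), and Spag5, a spindle protein, 57.9 ± 8.88 CPM in combination NR tumours and 37.1 ± 9.54 CPM in combination R tumours. Gzmb averaged 11.2 ± 2.88 CPM in combination NR tumours and 51.5 ± 57.4 CPM in combination R tumours, with a log2 fold change of -2.21 (SE 0.79) and an adjusted p of 0.431.

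Lists set side by side show where the combination R tumours stood. The T cell list had a median log2 fold change of -1.44 between combination NR and combination R tumours, the cytotoxic list -1.56, the interferon-gamma list -0.84 and tumour-promoting inflammation -0.87, beside -0.03 over all tested genes, and none of the members passed the limit. Markers of other tissue had lower medians still, of -3.22 for skeletal muscle (0 of 24 positive) and -2.30 for adipocytes (0 of 10 positive). The muscle mean ranged from -0.37 to 2.80 log2 CPM in combination NR tumours and from -0.16 to 6.32 log2 CPM in combination R tumours, where replicates 9, 10 and 11 were at 4.58, 6.08 and 6.32. The adipocyte mean ranged from 1.45 to 2.02 log2 CPM in combination NR tumours and from 1.32 to 5.04 log2 CPM in combination R tumours. Without the libraries with other tissue, 4 of them combination R, the medians were -1.51 for T cells, -1.55 for cytotoxic genes, -0.81 for interferon-gamma genes and -0.59 for inflammation, beside 0.24 for muscle and -1.22 for adipocytes. Per-tumour means of the T cell list were 2.01 ± 0.75 log2 CPM in combination NR tumours, 3.04 ± 1.43 in combination R tumours and 2.11 ± 0.88 in celecoxib tumours (SD). Those of the cytotoxic list were 3.06 ± 0.97, 4.12 ± 1.44 and 3.20 ± 0.88 in the same groups. The combination R group was spread widely, and 1 of its tumours, replicate 11, had a T cell mean of -0.29, below every combination NR and celecoxib tumour. That tumour also had the highest muscle mean of its group, 6.32 log2 CPM. Against the same celecoxib tumours, 7 genes were lower in combination R tumours (0.0491%) and 0 higher, namely Krt10, Fkbp5, Dmkn, Asprv1, Rnu11, Sbsn and Ajuba. Krt10, Dmkn, Asprv1 and Sbsn are genes of the epidermis, and the skin list was high in celecoxib replicate 3 alone. Without that replicate edgeR called 0 genes (1228 at an unadjusted p under 0.05), and the log2 fold changes were -0.38 for Krt10, -0.10 for Dmkn and 0.45 for Sbsn, in place of -2.47, -4.44 and -2.82, while Asprv1 had too few counts to be tested. Those of Rnu11 and Ajuba were -2.33 and -0.76 without it, in place of -2.83 and -0.70. Leaving out combination R replicate 4, 10 or 12 also gave 0 calls. Of the called genes Fkbp5 had a log2 fold change of -0.92 (SE 0.17) with an adjusted p of 0.0257 by edgeR in combination R tumours, beside -0.77 (SE 0.24) in combination NR tumours against the shared controls. Without celecoxib replicate 3 its value in combination R tumours was -0.91, with an adjusted p of 0.0576, and between combination NR and combination R tumours it was 0.15 (SE 0.21).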

How the data were processed

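Per the labels' protocols, libraries of 49 CT26 tumours were made from 500 ng of total RNA with the QuantSeq 3′ FWD kit, which reads the 3′ end of transcripts and marks strand. The authors deposited raw counts per Ensembl gene for 39179 genes. Per the submitters' processing notes, bcl2fastq, STAR, featureCounts and limma were used with the builds mm10 and GRCm38. Not given in the sources used here are versions, annotation release, strand setting and how multiply aligned reads were counted. The deposited table of log2 CPM values (16559 genes) was checked against the counts and equals, in each library, log2 of the count plus 0.5 over 1 constant (largest spread 9.99e-09), and tests used the counts. Symbols and coordinates came from a GRCm38 annotation and matched 37693 genes.

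Tests used edgeR 4.0.16 in R 4.3.3 (TMM, filterByExpr, robust quasi-likelihood fit of 6 groups over all 49 libraries, Benjamini-Hochberg over 14247 genes, limit 0.05). A fit of all groups was used because the smaller arm has 4 tumours. List means are means of log2 CPM with a prior count of 2. The total counts were compared by an exact permutation test in Python 3.11.15 with scipy 1.17.1. The most alike pair of compared libraries, combination NR replicates 1 and 3, differed by a chi-square of 10.6 per gene with r = 0.972 over log2 CPM, so none was a copy of another. Total counts ranged from 4251251 to 13671294 over all libraries. Replicate numbers follow accession order and name samples only.

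The groups, gene lists, panel and rule for named genes were chosen with earlier results of these data known. The rule takes, per direction, up to 10 genes between the arms (5 in the other contrasts) by fold change past the limit, filled up by smallest p, with a mean of at least 2 CPM in 1 group, leaving out predicted genes and receptor segments; it adds the 3 members of smallest p per list and a panel of 30 genes, 28 of them tested, and 2 of the genes it names are not reported here. The DESeq2 and combination R calls and the eosinophil genes fall outside it. Alternatives were DESeq2 1.42.0, limma-voom with and without sample quality weights (limma 3.58.1), RLE normalization, no filter on low counts, the compared groups alone, a muscle covariate, removal of 12 libraries with other tissue (muscle list mean over 3, skin or adipocyte list mean over 5 log2 CPM) and leaving out each library. Chosen after the data were seen were leaving out celecoxib replicates 1 and 3 together, leaving out each anti-PD-1 NR, vehicle and combination R library, all alternatives for combination R against celecoxib, and the list medians. The scripts were tested on simulated data. Promoters came from RefSeq (GRCm38.p6), where all 4 clock genes matched.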

Additional observations from a re-analysis of the deposited data

Results flagged for a closer look

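Among 156 sets of 1 gene or list mean in 1 group, 16 held a library that stood apart from the rest of its group by Dixon's gap, of which chance gives about 1 in 20. Gene levels are log2(CPM + 1) and list levels mean log2 CPM.

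Celecoxib replicate 3 accounted for 8 of the 16. It was high for Susd2 at 3.90 (next celecoxib tumour 1.63), Dmkn at 5.93 (1.23), Pkp1 at 5.20 (0.87), Dsp at 8.36 (1.74) and Perp at 6.78 (1.62), and for the skin epithelium list at 6.05 (1.17) and the cholesterol synthesis list at 5.56 (5.05). It was low for Cxcl1 at 2.11, against 3.05 in the next tumour. Celecoxib replicate 1 was high for metallothioneins and heat shock at 7.44 (6.73), and celecoxib replicate 4 for Cxcl10 at 8.45 (7.24).

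Among combination NR tumours, replicate 1 was high for the skeletal muscle list at 2.80, against -0.08 in the next tumour, and low for B and plasma cells at 1.0 (1.42). Combination NR replicate 2 was high for the skin epithelium list at 1.52 (1.05), and it alone had counts for Dmkn at 0.73 and Pkp1 at 0.22 with the other 3 at 0. Combination NR replicate 3 was high for the glucocorticoid list at 4.56 (4.06).

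Dbp was listed because 2 contrasts differed, by a test of the difference itself. The difference between combination NR and celecoxib tumours exceeded that between anti-PD-1 NR and vehicle tumours by 2.82 on the log2 scale, with an adjusted p of 0.0391 by edgeR.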

How the results depend on the processing

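Between combination NR and celecoxib tumours the count of genes past the limit was 0 by edgeR, 10 by DESeq2 and 1 with sample quality weights (Bbs4), and 0 under the 7 other alternatives that keep or regroup whole sets of libraries, including without celecoxib replicates 1 and 3. Leaving out 1 library gave 0 to 1, the call being Rnase2a without combination NR replicate 1, 2 or 4. For the contrast of this difference with that between anti-PD-1 NR and vehicle tumours the count was 1 by edgeR and 12 by DESeq2. It was 0 by limma-voom, 0 with sample quality weights, 0 with no filter on low counts and 0 without libraries with other tissue. Leaving out 1 library gave 0 to 2. Between combination NR and combination R tumours it was 0 by edgeR, 17 by DESeq2 and 1 with sample quality weights, and leaving out 1 of the 16 combination libraries gave 0 to 2, with 2 without combination NR replicate 4 or combination R replicate 6 and 1 without combination R replicate 7. Between combination R and celecoxib tumours it was 7 by edgeR and 0 without celecoxib replicates 1 and 3 (976 at an unadjusted p under 0.05). Leaving out 1 of the 19 libraries gave 0 to 12, with 12 without celecoxib replicate 7, 0 without celecoxib replicate 3 or combination R replicate 4, 10 or 12, and 1 to 4 without celecoxib replicate 2 or combination R replicate 1, 2, 3, 5, 6, 7, 8 or 9. The cause of these shifts was not tested.

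Of 138 named genes, some negative log2 fold changes became positive or 0. Without both celecoxib replicates 1 and 3 the values were 0.26 for Sbsn, 0.14 for Ryr1, 0.0 for Ckmt2, 0.44 for Mylpf, 0.45 for Des, 1.09 for Hspb1, 0.2 for Cdh1, 2.0 for Car3 and 0.11 for Rora. Without the libraries with other tissue they were 0.27 for Sbsn, 0.15 for Ryr1, 0.44 for Mylpf, 0.46 for Des, 1.09 for Hspb1, 0.2 for Cdh1, 2.02 for Car3 and 0.12 for Rora. Both settings kept combination NR replicate 1, whose skeletal muscle list mean of 2.80 log2 CPM was the highest of its group. DESeq2 gave 0.26 for Sbsn, 0.29 for Cdh1, 0.11 for Rora and 0.24 for Epcam. Sample quality weights gave 0.51 for Hspb1, 0.99 for Car3, 0.04 for Rora and 0.07 for Tgtp2, and the muscle covariate 0.01 for Car3. Leaving out 1 library gave -3.24 to 0.31 for Sbsn, -1.94 to 0.33 for Cdh1, -0.82 to 0.13 for Rora and -3.47 to 0.10 for Epcam.

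No paired analysis was possible because the replicate numbers were given in accession order and the labels pair no tumours. With 4 combination NR tumours the median standard error of a gene was 0.27 on the log2 scale, which limits the differences that can be detected. The depth comparison gave p = 0.658 on log2 totals and 0.742 on linear totals (exact permutation).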
